A study of Schizosaccharomyces pombe with 6 samples.

Results

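The 10 genes described here, ste11, mei2, mei3, mei4, rep1, ran1, mmi1, pac2, esc1 and nrd1, regulate the entry of fission yeast (Schizosaccharomyces pombe) into meiosis. They were chosen by name: a probe set was taken when the annotation of the array named 1 fission yeast gene and that gene was on the list. All 10 have a single probe set, and they are 10 of the 2899 fission yeast genes with a named probe set in the table. Total RNA was measured on 6 Affymetrix arrays, 3 of wild-type cells (genotype label wild type) and 3 of cells that lack isp7 (genotype label isp7+ null). Both groups were taken in exponential growth in Edinburgh minimal medium with ammonium chloride, and the labels give no other allele, treatment or mating type for either. Isp7 belongs to the 2-oxoglutarate and iron dependent dioxygenases, and the series' title links it to amino acid uptake and TOR signalling.

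Fission yeast cells normally divide as haploids and turn to mating and meiosis when nitrogen runs out. Starvation and stress signals raise Ste11, an HMG-box transcription factor, which switches on mating genes and mei2. Mei2 is an RNA-binding protein that starts meiosis. In growing cells the kinase Ran1, also called Pat1, phosphorylates Mei2 and keeps it inactive, and Mei3, made only when both mating types meet in a diploid, inhibits Ran1. A separate lock works on RNA: Mmi1 binds meiotic transcripts made too early and has them destroyed, among them that of mei4, and Mei2 sequesters Mmi1 once meiosis begins. Mei4 is a forkhead transcription factor for the genes of middle meiosis, and Rep1 is a coactivator of the MBF transcription factor complex in premeiotic DNA synthesis.

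Values are log2 probe set values made by the authors, so a difference of 1 is a 2-fold difference, and levels of different probe sets are not compared with each other. The change is isp7 null minus wild type. It was tested with limma over the 2917 probe sets whose annotation names 1 fission yeast gene, with p-values adjusted by Benjamini and Hochberg. Ranks and shares of all probe sets are over these 2917, and a further 5177 probe sets without a gene name are left out. A gene is said here to have risen or fallen when its adjusted p was under 0.05 and its change at least 1.5-fold, which held for 8.60% of the probe sets. The adjusted p alone was under 0.05 for 70.7%, so that by itself it sets no gene apart. The background was 7.08, percentile 95 of the mean values of 2601 probe sets with a budding yeast name or another name that matched no fission yeast gene. Deletion of isp7 showed in its own probe set, at 11.70, 11.63 and 11.55 in wild type and at 6.02, 6.38 and 6.18 in the null, below that background. Arrays correlated at 0.998 to 0.999 within groups and at 0.973 to 0.978 between them. Whether the 3 arrays of a group stand for 3 cultures is not in the labels, and a p-value therefore covers the scatter of these arrays only, part of which may be technical. In RNA of a whole culture, a change in a few cells and a change in every cell cannot be told apart.

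In the isp7 null strain the transcripts of mei2 and rep1 rose, and those of the other 8 regulators stayed within 1.5-fold. That is 2 of 10 rises, beside 4.22% rises among all probe sets, and 0 of 10 falls, beside 4.39%. At 2-fold only mei2 remained, beside 1.2% of all probe sets higher by that much. With the adjusted p alone, 3 regulators were higher (mei2, rep1 and ste11), beside 29.3% of all probe sets, and 3 were lower (nrd1, ran1 and mmi1), beside 41.3%. The values of the groups did not overlap for these 6 of the 10 genes, beside 76.1% of all probe sets. Over the 10 genes the median change was -0.06, close to the median of -0.05 over all probe sets.

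**Figure D1:**
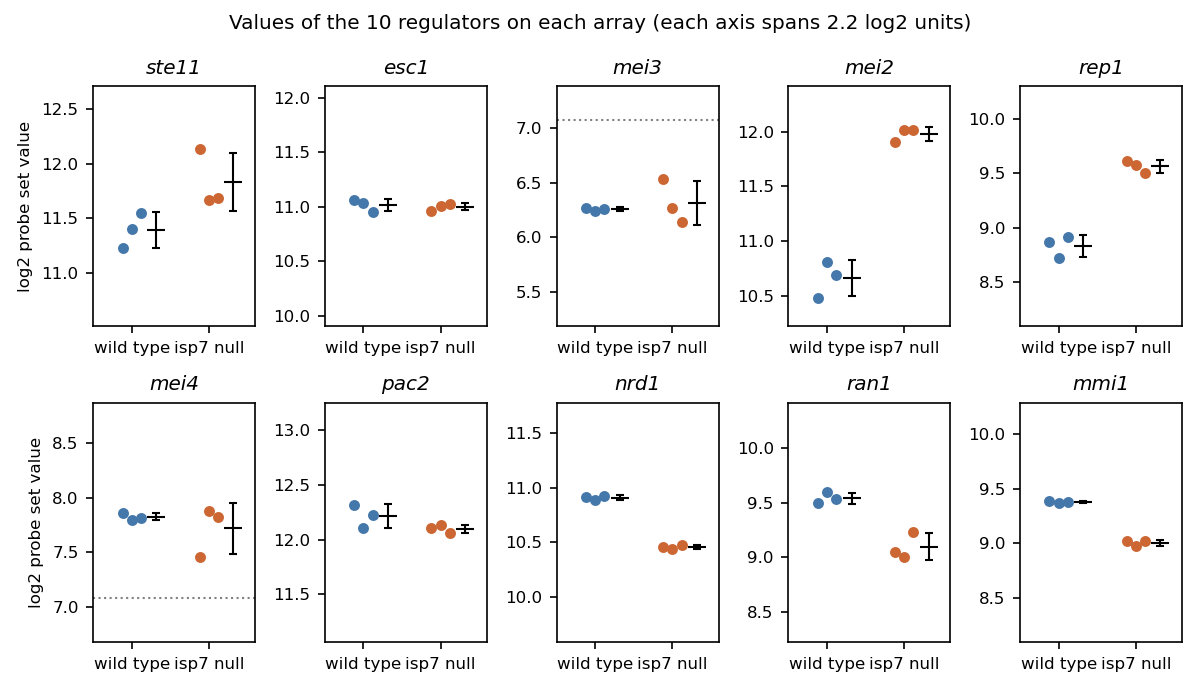
Log2 probe set values of the 10 regulators on each array, with wild type in blue and isp7 null in orange; the bar beside each group is the mean and SD of 3 arrays, and the dotted line is the background of 7.08. The 3 null arrays lie clearly above wild type for mei2 and rep1, clearly below for nrd1, ran1 and mmi1, and mei3 lies under the background on all 6 arrays.

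Grouped by what the regulators do, 6 promote entry into meiosis and 4 hold it back. Of the 6 that promote it, mei2 and rep1 rose, ste11 was higher by less than 1.5-fold, and esc1, mei3 and mei4 did not pass the test. Their median change was 0.25. It falls between the changes of ste11 and mei3, and so rests in part on mei3, which lies below the background on all 6 arrays. All 4 that hold entry back had lower values in the null, 3 of them with an adjusted p under 0.05, and their median change was -0.41, with none past 1.5-fold. This grouping was made with the values known, 58.3% of all probe sets had lower values, and changes of that size were common: 9.60% of all probe sets had a lower change than nrd1 and 15.2% a lower one than mmi1. The pattern also does not extend to msa1, a gene outside the 10 that acts against sexual differentiation, which rose by 0.63.

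**Figure D2:**
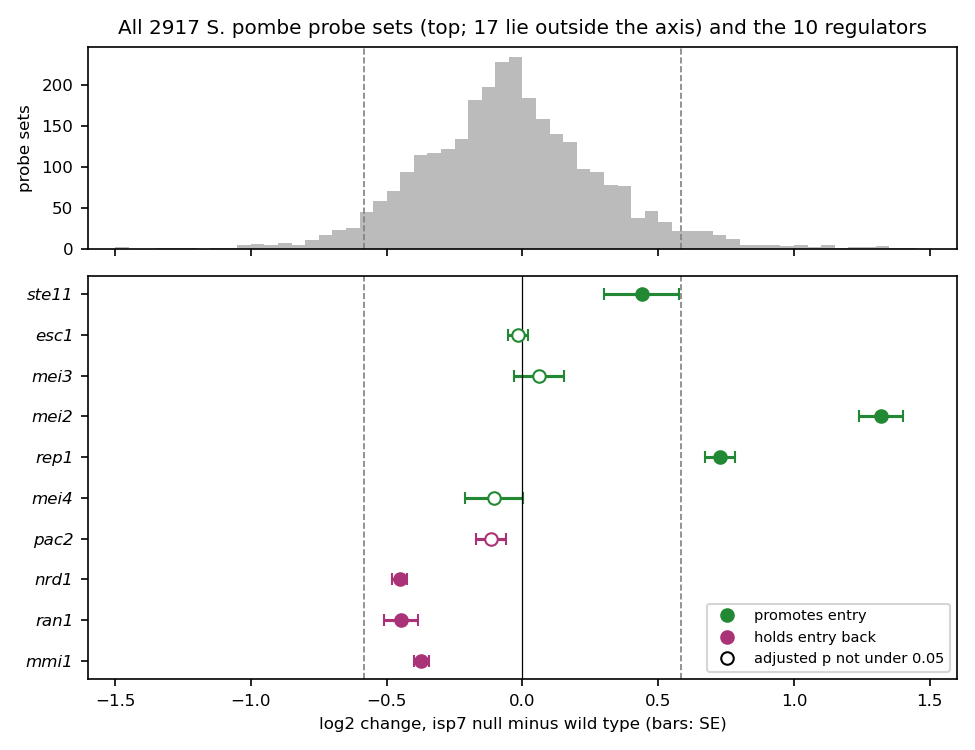
Top, the number of fission yeast probe sets at each log2 change (isp7 null minus wild type); bottom, the change of each regulator with its SE, in green for genes that promote entry and purple for genes that hold it back, open where the adjusted p was not under 0.05. Dashed lines mark 1.5-fold, which mei2 (1.32) and rep1 (0.73) exceed.

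The gene ste11 (SPBC32C12.02) encodes the transcription factor that opens sexual development. Its values were 11.22, 11.40 and 11.55 in wild type and 12.14, 11.67 and 11.69 in the null. The groups do not overlap, but null array 1 stands well above the other null arrays, and the highest wild-type array is close to the lowest null array. The means were 11.39 ± 0.16 (SD, n = 3) and 11.83 ± 0.27 (SD, n = 3), so that the null was higher by 0.44 or 1.36-fold (SE 0.14, limma adjusted p = 0.0241). Without null array 1 the change was 0.29 (limma adjusted p = 0.0251). The adjusted p was 0.0832 without wild-type array 1, 0.0537 without wild-type array 2 and 0.0973 without variance moderation.

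Another promoter of early sexual development, esc1 (SPAC56F8.16), encodes a helix-loop-helix protein. It stood at 11.06, 11.04 and 10.95 in wild type and at 10.97, 11.01 and 11.02 in the null, with overlapping groups. The change was -0.02, with a 95% confidence interval of -0.10 to 0.07 (limma adjusted p = 0.704).

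Among the genes that act against Ste11, nrd1 (SPAC2F7.11) encodes an RNA-binding protein that keeps Ste11-dependent genes from acting without starvation. Its values were 10.91, 10.88 and 10.93 in wild type and 10.45, 10.44 and 10.48 in the null. The spread within each group was small and all null arrays were lower. The log2 change was -0.45, or 1.37-fold lower (SE 0.027, limma adjusted p = 1.29e-05). The gene msa1 (SPAC13G7.13c), which was looked up after its values had been seen, encodes a further RNA-binding protein known to act against sexual differentiation. It went the other way, from 10.53, 10.51 and 10.55 in wild type to 11.15, 11.14 and 11.20 in the null. It rose by 0.63, past 1.5-fold (SE 0.028, limma adjusted p = 6.15e-06).

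A further negative regulator, pac2 (SPAC31G5.11), lowers ste11 expression when it is overproduced. It stood at 12.32, 12.10 and 12.23 in wild type and at 12.10, 12.13 and 12.06 in the null. The groups overlap, and the change of -0.12 (95% confidence interval -0.25 to 0.01) did not pass (limma adjusted p = 0.0928). Without wild-type array 2, the lowest of its group, the change was -0.17 (limma adjusted p = 0.0112).

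In the switch itself, mei2 (SPAC27D7.03c) changed most of the 10 genes. Its values were 10.48, 10.81 and 10.69 in wild type and 11.91, 12.02 and 12.02 in the null. Every null array was more than 1 log2 unit above every wild-type array. The means were 10.66 ± 0.17 (SD, n = 3) and 11.98 ± 0.064 (SD, n = 3), a log2 change of 1.32 or 2.50-fold (SE 0.082, limma adjusted p = 1.35e-05). The rise of mei2 was rank 19 from the top among the 2917 probe sets. Leaving out any 1 array gave changes of 1.23 to 1.40.

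The gene of the kinase that restrains Mei2, ran1 (SPBC19C2.05, now named pat1), was lower in the null. It stood at 9.50, 9.60 and 9.53 in wild type and at 9.04, 9.01 and 9.24 in the null. The groups do not overlap, and null array 3 lies nearest to wild type. The log2 change was -0.45, or 1.36-fold lower (SE 0.063, limma adjusted p = 0.000549).

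The gene of the Ran1 inhibitor, mei3 (SPBC119.04), was at 6.27, 6.24 and 6.26 in wild type and at 6.54, 6.27 and 6.15 in the null. All 6 values lie below the background, so no fold is given (limma adjusted p = 0.574).

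Of the regulators that act later, rep1 (SPBC2D10.06) rose. Its values were 8.87, 8.72 and 8.92 in wild type and 9.61, 9.58 and 9.50 in the null, and the groups are well apart. The means were 8.84 ± 0.10 (SD, n = 3) and 9.56 ± 0.057 (SD, n = 3), a log2 change of 0.73 or 1.66-fold (SE 0.056, limma adjusted p = 3.45e-05). It was rank 75 from the top.

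By contrast mei4 (SPBC32H8.11), the gene of the factor for middle meiosis, stood at 7.86, 7.80 and 7.82 in wild type and at 7.45, 7.88 and 7.83 in the null. All 6 values lie less than 1 log2 unit above the background. Null arrays 2 and 3 fall among or beside the wild-type arrays and null array 1 lies below them. The change was -0.10 with a 95% confidence interval of -0.35 to 0.14 (limma adjusted p = 0.396), and without null array 1 it was 0.03.

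The gene of the RNA lock, mmi1 (SPCC736.12c), stood at 9.39, 9.37 and 9.38 in wild type and at 9.02, 8.97 and 9.02 in the null. Each group is tight and all null arrays are lower. The log2 change was -0.37, or 1.29-fold lower (SE 0.027, limma adjusted p = 2.62e-05).

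The early switch genes (ste11, esc1, nrd1, pac2, mei2, ran1 and mei3) did not move as a block against the later regulators (rep1, mei4 and mmi1). Of the 7 early genes 1 rose, and of the 3 later genes 1 rose, beside 4.22% of all probe sets. The median change was -0.02 for the early genes and -0.10 for the later genes. As a description of single genes, within each array the log2 value of mei2 minus that of mei4 was 2.62, 3.01 and 2.88 in wild type and 4.46, 4.14 and 4.19 in the null. This difference grew by 1.43, and it was larger in all 3 null arrays than in any wild-type array, as the values of mei2 alone are. A two-sided exact permutation test of 3 against 3 arrays cannot go below p = 0.10, the value it gave, so the difference between the 2 genes is not shown by a test. The same difference for ste11 was 3.36, 3.60 and 3.73 in wild type and 4.68, 3.79 and 3.86 in the null, a growth of 0.54. The latter rests largely on null array 1, without which it was 0.26.

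Upstream of ste11 the changes were mixed. A list of 20 signalling and transcription genes was drawn up as upstream of ste11. Of these 2 rose, ste7 and rsv2, beside 4.22% of all probe sets, and 0 fell, with a median change of 0.06. Neither rise can be read as a change upstream of ste11 alone. The gene ste7 is also on the list of Ste11 targets, and rsv2 is known for a role in sporulating cells. The count of rises depended on the fit: it was 4 without wild-type array 1, 3 without wild-type array 3, null array 1 or null array 3, 3 with median centring or repeated quantile normalization, 5 after the gene length correction and 1 without variance moderation. The arrestin-related gene ste7, which is needed for mating, rose by 0.91 (SE 0.051, limma adjusted p = 1.08e-05). The stress-activated kinase gene sty1 had a change of -0.07 and the gene of Rst2, the zinc finger activator of ste11, one of 0.03; neither passed (limma adjusted p = 0.0535 and 0.453). The genes of the transcription factors Atf1 and Pcr1, which bind as a pair, were higher by 0.52 and 0.44 (limma adjusted p = 0.00787 and 0.00518), short of 1.5-fold. Among 8 genes of the TOR complexes and related kinases 0 rose and 0 fell, and their median change was 0.01.

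Among genes known to depend on Ste11 rises were frequent. Of 19 listed, 11 rose and 0 fell, beside 4.22% rises in all, and the median change was 0.75. The list holds ste11, mei2 and rep1, and 9 of its other 16 genes rose, with a median of 0.75. The rises were led by the M-factor pheromone gene mfm1 (4.25), by ste4 (1.37), which encodes an adaptor of the pheromone kinase cascade, by mei2, and by the P-factor receptor gene mam2 (1.26). The other rises lay between 0.73 and 1.01. The P-cell genes map2 and map3 and the pheromone-induced gene sxa2 had changes of -0.09, -0.13 and -0.11 and did not pass. The 3 mfm genes are near-identical in their coding parts, so their separate values are uncertain, and mfm2 stood at 0.46 after correction for gene length. Mating and pheromone genes were known to rise in these data when the list was made, so the count does not stand as independent evidence.

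Markers of the mating types overlap with this list. The M-cell list has 5 measured markers, mfm1, mfm2, mfm3, mam1 and mam2, and leaves out sxa2, which did not pass. All 5 are among the Ste11 targets, and 4 of them rose, beside 4.22% of all probe sets, with a median change of 1.01. The mean of their log2 values lay between 10.41 and 10.48 on the wild-type arrays and between 11.92 and 12.05 on the null arrays, with none below the background. Of 5 P-cell markers 1 rose, map1, which is on both lists as well. The median change of the 5 was 0.015. The mean of their log2 values was 9.76 to 9.82 on the wild-type arrays and 9.93 to 9.97 on the null arrays. Of 8 markers of sporulating cells 0 rose and spo6 fell, beside 4.39% falls in all, with a median change of -0.001. The mean of their log2 values was 7.99 to 8.06 on the wild-type arrays and 7.91 to 7.97 on the null arrays. The part of mating type in these results was not tested.

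**Figure D3:**
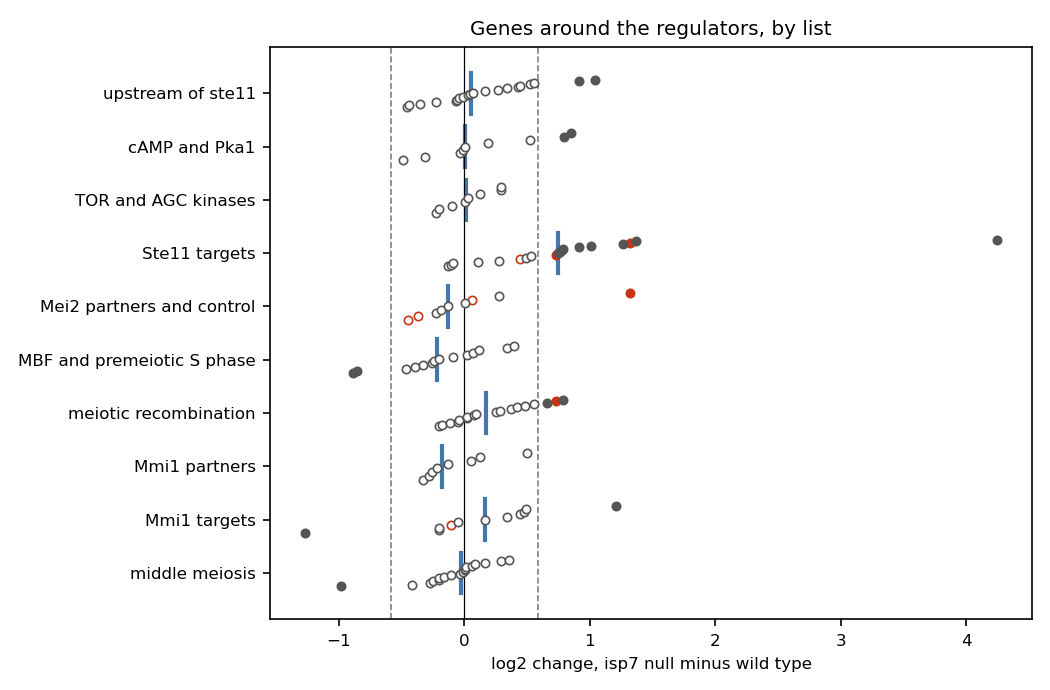
Log2 change (isp7 null minus wild type) of each measured gene in 10 lists around the regulators; filled points passed the adjusted p and 1.5-fold (dashed lines), red points are regulators and blue bars are list medians. The Ste11 targets have a median of 0.75, while the medians of the other lists lie between -0.22 and 0.17.

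Genes that act on the Mei2 protein changed little. Those of the ubiquitin ligase Ubr1 and of the raptor subunit Mip1, which binds Mei2, had log2 changes of -0.19 and -0.23 (limma adjusted p = 0.000554 and 0.00286), and rhp6, the gene of the ubiquitin-conjugating enzyme Ubc2, was higher by 0.28 (limma adjusted p = 7.89e-05). That list of 9 includes mei2, ran1, mei3 and mmi1. In it only mei2 rose and 0 fell, beside 4.22% rises and 4.39% falls among all probe sets.

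Around Rep1, the list of the MBF complex, its targets and premeiotic S phase had 14 measured genes. Of these 0 rose and 2 fell, the cyclin gene cig2 and the checkpoint kinase gene mik1, beside 4.39% falls in all. The median change was -0.22, and -0.12 without null array 1. The values of cig2 were 12.48, 12.47 and 12.73 in wild type and 11.62, 11.70 and 11.77 in the null, a change of -0.86 (SE 0.076, limma adjusted p = 5.88e-05). Those of mik1 were 8.71, 8.66 and 8.80 against 7.58, 7.88 and 8.04, a change of -0.89 (SE 0.11, limma adjusted p = 0.000293). For rep2, which encodes the counterpart of Rep1 in dividing cells, the change was -0.39 (SE 0.036, limma adjusted p = 6.71e-05), opposite in sign to that of rep1. The gene of the MBF subunit Res2, with which Rep1 works in meiosis, had a change of 0.34 (limma adjusted p = 0.00435).

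In meiotic recombination, 3 of 18 genes rose, beside 4.22% of all probe sets, and 0 fell, beside 4.39%. One of the 3 was rep1 itself, also called rec16. The others were rec25 and rec10, whose products belong to the linear elements of meiotic chromosomes. The values of rec25 were 8.03, 8.03 and 8.02 in wild type and 8.70, 8.85 and 8.88 in the null, a change of 0.78 (SE 0.048, limma adjusted p = 1.29e-05). For rec10 the change was 0.66 (SE 0.070, limma adjusted p = 0.000142). The meiotic cohesin gene rec8 had a change of -0.20 (limma adjusted p = 0.160) and lies below the background in both groups, as do 4 others of the list. Without rep1 the median of the list was 0.09.

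Transcripts that Mmi1 removes did not move together. Of 11 listed, mug5 rose and mug8 fell, beside 4.22% rises and 4.39% falls among all probe sets. The median change was 0.16, but it rested on single arrays: it was 0.32 without null array 1, where a further gene rose, 0.09 without wild-type array 1 and 0.06 without null array 3. The values of mug5 were 7.49, 7.25 and 7.59 in wild type and 8.67, 8.51 and 8.79 in the null, a change of 1.21 (SE 0.10, limma adjusted p = 4.58e-05). Those of mug8 were 8.77, 8.29 and 8.92 against 6.96, 7.54 and 7.67, a change of -1.27 (SE 0.22, limma adjusted p = 0.00161). The 2 genes thus changed in opposite directions. The lower group of each lies close to the background of 7.08, and null array 1 of mug8 lies below it. The sizes of both changes are therefore uncertain, and mug8 is also among the most variable of the list within groups. Of 15 listed genes for partners of Mmi1 in RNA removal only 8 were measured. Among those without a named probe set are erh1, mtl1 and red5, so much of this machinery was not seen. Of the 8 measured genes 0 rose and 0 fell, with a median of -0.18. The largest change among these 8 was that of caf1, a deadenylase gene, at 0.50 (SE 0.035, limma adjusted p = 2.28e-05).

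Genes of middle meiosis and spore formation, many of which depend on Mei4, did not rise. Of 18 measured, 0 rose, beside 4.22% of all probe sets, and spo6 fell, beside 4.39%. The median change was -0.02, and 4 of the genes lay below the background in both groups. The values of spo6, which encodes a kinase subunit of meiosis, were 7.13, 6.96 and 7.27 in wild type and 6.28, 6.05 and 6.08 in the null. Only 2 wild-type arrays lie above the background of 7.08 and all null arrays lie below it, so no size is given for its fall (limma adjusted p = 6.89e-05). With probe sets kept only where their mean exceeds the background, spo6 was not tested and 0 of the 12 genes left rose or fell. The list's median was 0.02 with median centring.

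The genes closest to mei2 in their pattern were ste4, the copper amine oxidase gene cao2 and the ammonium transporter gene amt1. Closeness is the root mean square distance, over the 6 arrays, of values taken as deviations from each gene's wild-type mean, and it was 0.07 for ste4, 0.15 for cao2 and 0.16 for amt1 on the log2 scale, among 2898 genes compared. For ste11 the closest were pog1 (0.10), meu26 (0.11) and bpb1 (0.12). In pog1, meu26 and bpb1, as in ste11, null array 1 was the highest array: pog1 stood at 12.05 there and at 11.63 and 11.55 on the other null arrays. Over all probe sets null array 1 was the farthest of its group for 44.8%, and over the 10 regulators for 5.

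Gene length ran with the change over the whole table, and the regulators were set against it. Across the 2917 probe sets, which are not independent, Spearman's rho between change and gene length was -0.367. Both mei2 and ste11 are long genes (4043 and 4025 bases). In a window of 3700 to 4100 bases, chosen after the values were seen, the median change of 99 probe sets was -0.17, and none had a larger rise than mei2. Slopes of the arrays on log2 length were 0.0695 to 0.0792 in wild type and -0.083 to -0.0677 in the null, so they run with genotype. A correction for them cannot tell a technical trend from a change of the genotype that follows length. After each array was corrected for its slope on log2 length, mei2 stood at 1.49, rep1 at 0.76 and ste11 at 0.60, where ste11 also passed 1.5-fold, so that 3 of 10 rose. The lower genes stood at -0.30 for nrd1, -0.47 for ran1 and -0.27 for mmi1, each with a limma adjusted p under 0.05, while pac2, a short gene of 708 bases, went to -0.32 (limma adjusted p = 0.00169). The small change of esc1 turned to 0.10 (limma adjusted p = 0.0412).

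**Figure D4:**
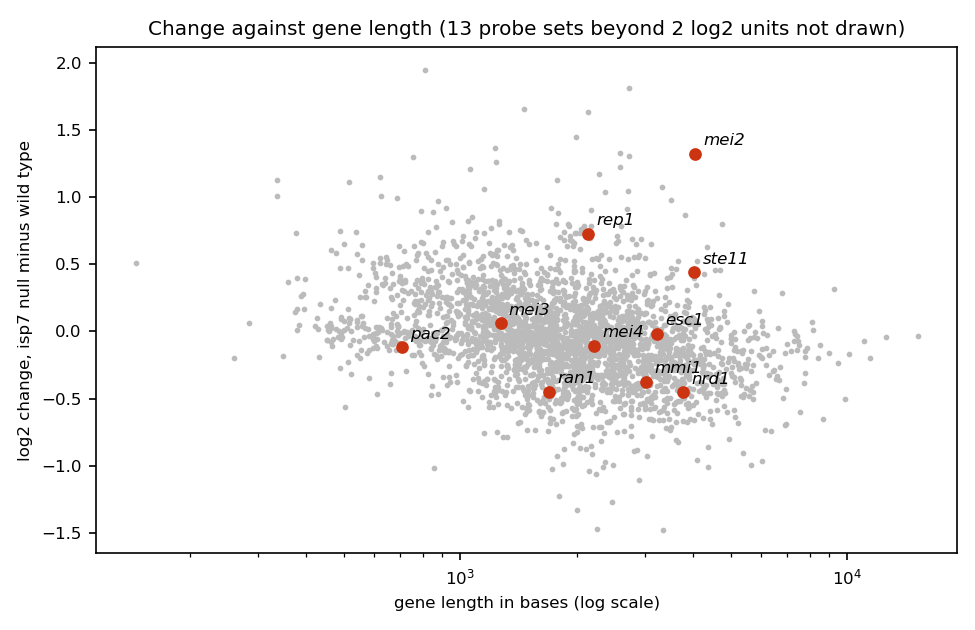
Log2 change (isp7 null minus wild type) of each probe set against gene length in bases on a log axis, with the 10 regulators in red. Most long genes lie below 0, while mei2 (1.32) and ste11 (0.44) lie above most genes of their length.

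**Figure D5:**
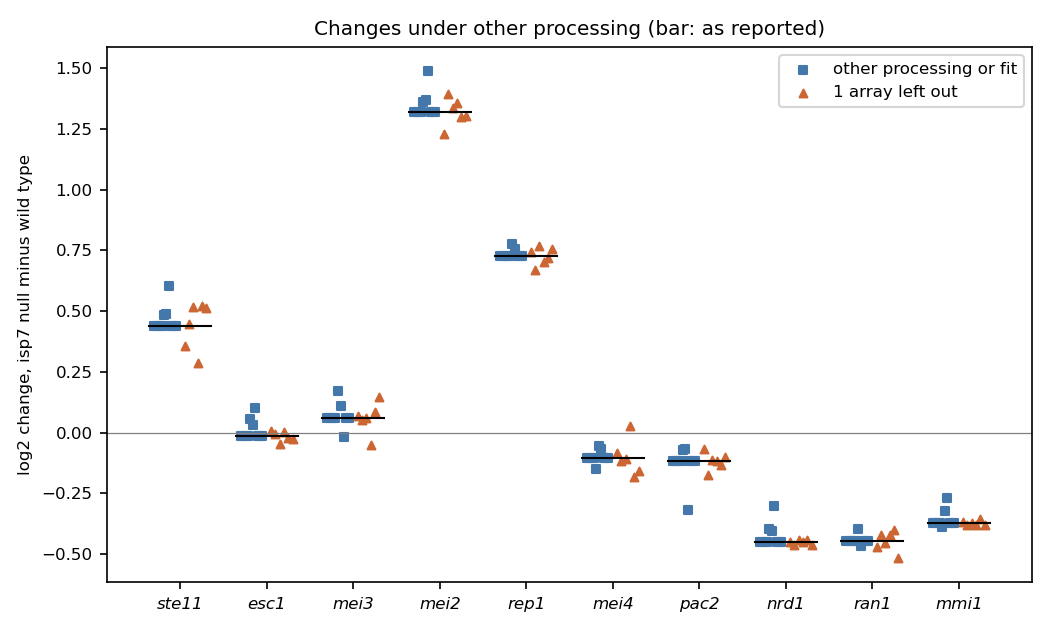
Log2 change (isp7 null minus wild type) of each regulator under other processing or another fit (blue squares) and with 1 array left out (orange triangles); black bars are the values reported. The values of mei2, rep1, nrd1, ran1 and mmi1 keep their sign throughout, and those of esc1, mei3 and mei4 lie on both sides of 0.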

How the data were processed

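Deposited values are log2 probe set values of 6 arrays, made by the authors with RMA in Partek 6.5 per the submitters' processing notes. RMA brings all arrays to 1 distribution, so a change in the RNA content of the cells is lost, and it compresses differences near the background. Gene names come from the annotation of the platform, with symbols and gene lengths from the RefSeq gene table of assembly ASM294v3. No build is named for the array, and no coordinates are given. The fit was limma 3.58.1 (lmFit, eBayes) in R 4.3.3 on 2917 fission yeast probe sets, two-sided, and its code was tested on simulated data. Where several probe sets share a gene, the brightest on average was used. Array number limits the precision. The genes and lists were chosen with earlier results of these data known. Named genes are the 10 regulators, isp7, up to 4 called genes per list by size, genes that complete small counts, and the 3 nearest to mei2 and ste11. Others of the lists (Atf1, Pcr1, Rst2, sty1, mip1, ubr1, rhp6, rep2, res2, rec8, caf1, gpa2 and pka1), msa1 and genes given for their role were added after their values were seen. The alternatives were other variance priors, a replicate block, other scaling, a length correction, a background filter, other sets of probe sets and leaving out each array.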

Additional observations from a re-analysis of the deposited data

How the results depend on the processing

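For mei2, rep1, nrd1, ran1 and mmi1 all 16 alternatives kept the direction and an adjusted p under 0.05. The change of ste11 stayed at 0.44 but missed that threshold without variance moderation (adjusted p = 0.0973). Leaving out each array gave ste11 changes of 0.29 to 0.52 (adjusted p = 0.0237 to 0.0832). For pac2 the threshold was passed after the gene length correction (-0.32), and leaving out each array gave -0.174 to -0.067. The change of esc1 turned positive with repeated quantile normalization (0.057), median centring (0.032) and the length correction (0.10), and lay between -0.049 and 0.005 with each array left out. That of mei3 turned to -0.02 after the length correction and ranged from -0.051 to 0.146 with each array left out, where all its values lie below the background and the sign carries no direction, and that of mei4 ranged from -0.185 to 0.029. The median of the early genes minus that of the later genes was 0.09 and ranged from -0.08, without null array 1, to 0.16 with each array left out. Why these values move was not tested. Over all probe sets 123 rose and 128 fell, against 154 and 94 with median centring and 144 and 104 with repeated quantile normalization.

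Same-numbered arrays of the 2 groups had deviations correlated at -0.116, -0.251 and 0.108, and not every array correlated best with its own number. These values gave no clear sign that the numbers pair the arrays. With so few arrays in each group, weak correlations cannot exclude such pairing. With the replicate block, the number as a term of the fit, 124 rose and 128 fell in all, and ste11 stood at 0.44 with an adjusted p = 0.0569. The block ended no other call among the 10 genes.

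Near the background, mei3 and mei4 allow no statement about small changes.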

Other observations

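Genes of the cAMP pathway, which holds ste11 down when glucose is present, changed in both directions. Of 9 measured, git11 and git5 rose, beside 4.22% of all probe sets, and 0 fell, beside 4.39%. The median change was 0.005. The values of git11, the gene of a G protein gamma subunit, were 8.75, 8.80 and 8.65 in wild type and 9.75, 9.53 and 9.46 in the null, a change of 0.85 (SE 0.079, limma adjusted p = 7.19e-05). For git5, the gene of the beta subunit that pairs with it, the change was 0.80 (SE 0.11, limma adjusted p = 0.000589). The alpha subunit gene gpa2 stood at 10.01, 10.04 and 9.87 in wild type and at 9.32, 9.61 and 9.52 in the null, a change of -0.49 (SE 0.079, limma adjusted p = 0.00117), short of 1.5-fold. The kinase gene pka1 was higher by 0.53 (limma adjusted p = 0.000676).

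The zinc finger gene rsv2, which is known for a role in stress genes of sporulating cells, stood at 9.09, 8.71 and 8.94 in wild type and at 10.63, 9.81 and 9.40 in the null. The null arrays were all higher but far apart (SD 0.62, n = 3). The change was 1.04 (SE 0.29, limma adjusted p = 0.0139), 0.70 without null array 1 (limma adjusted p = 0.00538), and did not pass without variance moderation (adjusted p = 0.0735). Of 13 genes of the pheromone signal 3 rose (ste4, gpa1 and rgs1), beside 4.22% of all probe sets, and 0 fell, with a median change of 0.11. These 3 are also on the list of Ste11 targets and were counted there; gpa1 encodes the G protein alpha subunit of that pathway and rgs1 its regulator.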
